A study of Mus musculus with 8 samples.

Results

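A set of 10 genes that fibro-adipogenic progenitors (FAPs) use to signal to immune and muscle cells were followed in RNA-seq of sorted FAPs, namely the cytokine genes Il6, Lif, Il11, Clcf1, Il33, Tslp, Il15, Csf1 and Il34 and the receptor gene Osmr. They were chosen by name and make up 10 of the 55276 gene symbols of the expression tables. FAPs are the connective tissue progenitors of skeletal muscle. GFP+ FAPs were sorted, with CD45, CD31 and TER119 stained for a gate against leukocytes, endothelial and erythroid cells, from tibialis anterior muscle at 3 and 7 days after a freeze-pierce injury (dpi) from mice of 4 to 6 months, and 2 libraries were made for each genotype and day. Both genotypes carried CAGG-CreER, a tamoxifen-inducible Cre that is active in all cell types, and both received tamoxifen on the day of injury and the following days. The floxed Osr1 allele expresses GFP once Cre has recombined it, so both genotypes could be sorted alike: controls (Ctrl, Osr1 flox/+ CAGG Cre+) were heterozygous for the recombined allele and conditional knockouts (Osr1cKO, Osr1 flox/flox CAGG Cre+) were homozygous. RNA of 1 mouse went into each library of 3 dpi, whereas each library of 7 dpi pooled 4 mice. Values are TPM, a transcript level scaled to gene length and library depth, so that levels can also be compared between genes. All 10 genes passed the filter on low values in every comparison.

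IL-6, LIF, IL-11 and cardiotrophin-like cytokine (Clcf1) belong to one family: each binds a receptor complex that contains gp130 (Il6st) and activates JAK kinases and STAT3, and Socs3, a STAT3 target, shuts the complex off. Osmr encodes the chain that pairs with gp130 to bind oncostatin M. IL-33 and TSLP are alarmins, released by stromal and barrier cells to act on innate lymphoid cells, regulatory T cells and other leukocytes, IL-15 sustains natural killer and memory T cells, and CSF-1 and IL-34 share CSF1R, the receptor that macrophages depend on. In injured muscle, FAPs are a known source of IL-6, which acts on muscle stem cells, and of IL-33, which acts on regulatory T cells.

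The tables hold between 36516585 and 51096586 recovered fragments per library, and within a library the 10 genes drew on at least 42 fragments each (Tslp in Osr1cKO replicate 1 at 7 dpi) and up to 88585 (Csf1 at 3 dpi). Osr1 itself was at 105 and 91.0 TPM in the controls and at 70.7 and 71.9 in Osr1cKO at 3 dpi, and at 67.6 and 71.6 against 64.4 and 60.8 at 7 dpi; these values cover the whole gene and do not separate its deleted part. The FAP markers Pdgfra and Dcn were at 197 TPM or more in every library, and the pan-leukocyte gene Ptprc was at 0.216 TPM or less. At 3 dpi the controls were the least alike pair (r = 0.977 across genes, against 0.989 to 0.992 in the other groups), and control replicate 2 was closer to Osr1cKO replicate 1 (r = 0.986) than to control replicate 1. Immediate early genes were high throughout, with Fos at 1354 TPM or more. Day and the number of mice pooled cannot be told apart. The study's methods name a second sequencing instrument, whereas the sample labels name the same instrument for every library. Whether the sequencing run also went with day is therefore not known.

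Expression of such cytokines is known to be set both at the promoter and by mRNA decay, and sequence of both kinds was read for the members. RefSeq promoters (GRCm38.p6, the assembly of mm10) were at hand for 6 of the 10 genes, Il6, Lif, Il11, Il33, Csf1 and Osmr. The 250 bases before the start were searched on both strands for letters of 7 motifs. The promoters of Il6, Lif and Csf1 are shown, with motif matches in capitals, because among genes with a promoter these 3 passed the unadjusted rule between genotypes on at least 1 day.
Il6, chr5:30012864-30013113, plus strand: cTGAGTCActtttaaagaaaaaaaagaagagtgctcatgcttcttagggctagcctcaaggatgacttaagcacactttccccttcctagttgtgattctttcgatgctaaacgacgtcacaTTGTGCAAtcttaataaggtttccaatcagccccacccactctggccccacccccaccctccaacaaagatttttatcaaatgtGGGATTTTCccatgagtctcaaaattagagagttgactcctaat
Lif, chr11:4257318-4257567, plus strand: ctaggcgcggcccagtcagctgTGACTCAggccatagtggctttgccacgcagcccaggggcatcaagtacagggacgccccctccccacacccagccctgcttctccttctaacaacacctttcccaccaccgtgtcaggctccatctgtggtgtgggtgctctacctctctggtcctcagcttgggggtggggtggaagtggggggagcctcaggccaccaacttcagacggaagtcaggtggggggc
Csf1, chr3:107760470-107760719, minus strand: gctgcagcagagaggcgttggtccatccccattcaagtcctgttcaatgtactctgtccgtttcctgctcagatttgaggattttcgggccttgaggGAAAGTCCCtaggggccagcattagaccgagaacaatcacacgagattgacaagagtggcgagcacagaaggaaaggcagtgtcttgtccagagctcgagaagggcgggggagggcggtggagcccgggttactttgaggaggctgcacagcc
Il6 held an AP-1 match 249 to 243 bases before the start, a C/EBP match on the opposite strand at 128 to 121 and an NF-kB match at 44 to 36. Lif held an AP-1 match at 228 to 222, and Csf1 an NF-kB match on the opposite strand at 153 to 145. The NF-kB letters searched were GGGANTTTC, which 0.941% of all 32851 promoters held in this window. The AP-1 letters were TGANTCA, held by 6.75% of promoters. The C/EBP letters were TTGCNCAA, held by 2.61% of promoters. The second of the 2 Il11 promoters held an AP-1 match, the 2 Il33 promoters held only the TATA letters TATAAA (12.4% of all promoters), and Osmr had no match. The CRE letters TGACGTCA, found in 1.55% of promoters, were in none of these windows. Neither were the STAT letters TTCNNNGAA, found in 7.02% of promoters. The same held for the IRF letters GAAANNGAA, found in 7.13%. A match of letters is a description of the sequence and not a measured binding site.

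AU-rich elements in the 3′ UTR, built on the pentamer ATTTA, mark mRNAs for decay by proteins such as tristetraprolin (Zfp36). In the GENCODE release 21 transcripts (GRCm38), Il6 had 6 pentamers in a 3′ UTR of 427 bases, or 14.1 per kb, a density higher than in 99.8% of 13298 genes, and Il11 had 10 at 8.38 per kb, higher than in 98.7%. Clcf1 had 4 in 922 bases (4.34 per kb), Lif had 7 in 3180 bases, and the median gene had 1.33 per kb. The longer form TATTTAT occurred in 5 of the 10 genes, the 4 gp130 ligand genes and Csf1, and in 29.8% of all genes. For each of these 5 genes the stretch of at most 30 bases with the most pentamers is shown, with the pentamers in capitals; of the stretches shown, those of Il11 and Clcf1 hold the longer form.
Il6, chr5:30019687-30019710, plus strand: tttaATTTAttgataATTTAaata
Lif, chr11:4272414-4272443, plus strand: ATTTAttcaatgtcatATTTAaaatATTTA
Il11, chr7:4773502-4773522, minus strand: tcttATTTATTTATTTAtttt
Clcf1, chr19:4223404-4223433, plus strand: atATTTATTTAtttggagatgttATTTAtt
Csf1, chr3:107741105-107741129, minus strand: ggtcATTTAaatatctATTTAaaaa
The other 5 genes held between 1 pentamer (Il15 and Il34) and 4 (Osmr), with 2 in Tslp and 3 in Il33.

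Averaged over the 8 libraries, Csf1 was the most abundant of the 10 genes at 589 TPM, higher than 98.5% of tested genes, followed by Il6 at 209.7, Il33 at 179.9 and Lif at 141 TPM. Il11 (75.8), Osmr (67.9) and Clcf1 (53.6 TPM) came next. Il34 (16.6), Il15 (7.09) and Tslp (7.01 TPM) were the lowest, the last 2 above only 45.4% and 45.2% of tested genes. Il11 covered the widest range, with its highest library 10.8 times its lowest, and Osmr the narrowest at 1.47 times.

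**Figure D1:**
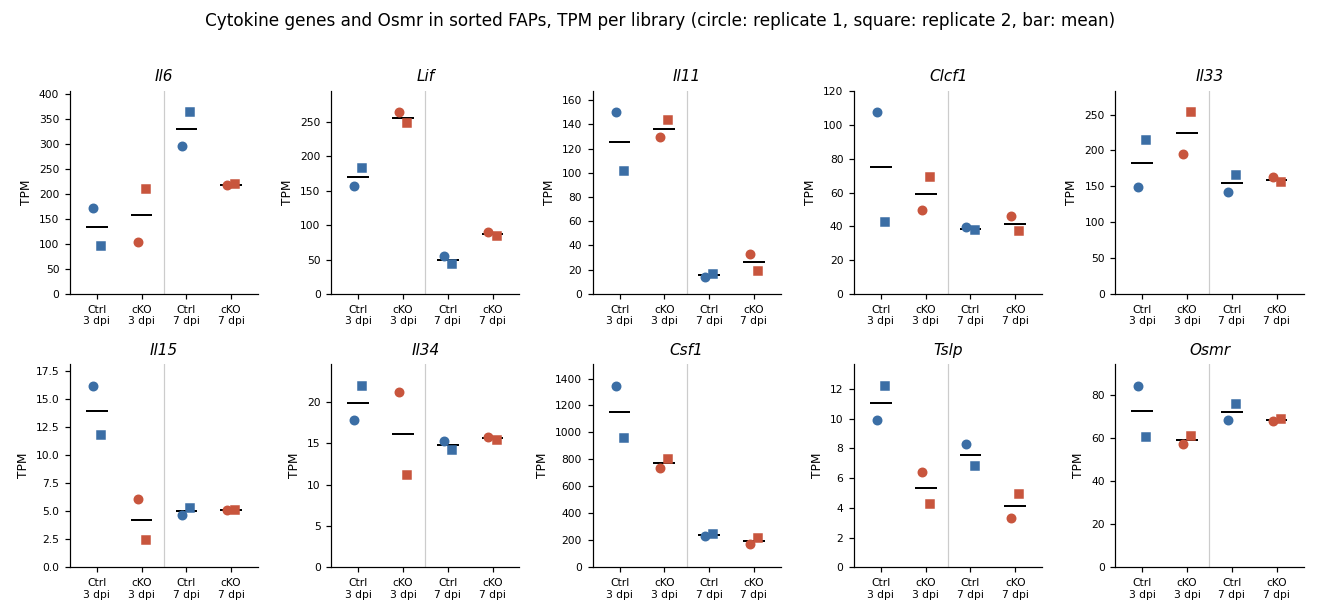
TPM of the 10 genes (vertical axes, linear and from 0) in the 8 libraries, by genotype and day on the horizontal axes; each point is 1 library and each bar the mean of 2. Lif lies above and Tslp and Csf1 lie below the controls in Osr1cKO on both days, Il15 lies below only at 3 dpi, and Il6 separates the genotypes at 7 dpi, with controls at 296 and 363 and Osr1cKO at 217 and 219 TPM.

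The first comparison asks how FAPs without Osr1 differ from heterozygous FAPs in these genes at each day. At 3 dpi a call took a limma p below 0.05 before adjustment together with a change of more than 1.2-fold, the study's rule for that day. One of the 10 genes was called higher, Lif, where 2.20% of the 15699 tested genes were called higher, and 3 were called lower, Il15, Tslp and Csf1, where 4.08% were. No gene of the table passed a Benjamini-Hochberg adjusted p under 0.1 on that day. At 7 dpi the study's rule asks for an adjusted p under 0.1, which 0.0181% of 16578 genes passed upward and 0.0483% downward, and none of the 10 genes did by limma. By the unadjusted rule of 3 dpi, 1 of the 10 lay higher at 7 dpi, Lif, where 5.10% of genes did, and 3 lay lower, Il6, Tslp and Csf1, where 6.02% did. The median log2 fold change of the 10 genes was -0.26 at 3 dpi and -0.08 at 7 dpi, beside -0.006 and 0.0007 over all tested genes. Levels, ratios of means and overlap of groups are read on deposited TPM, whereas log2 fold changes are read after the libraries were scaled. Scaling lowered log2 fold changes of Osr1cKO against controls by a median of 0.12 at 7 dpi and 0.016 at 3 dpi, so the 2 kinds of value differ. As each library is a bulk sample, fewer cells that express a gene and less RNA per cell cannot be told apart.

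**Figure D2:**
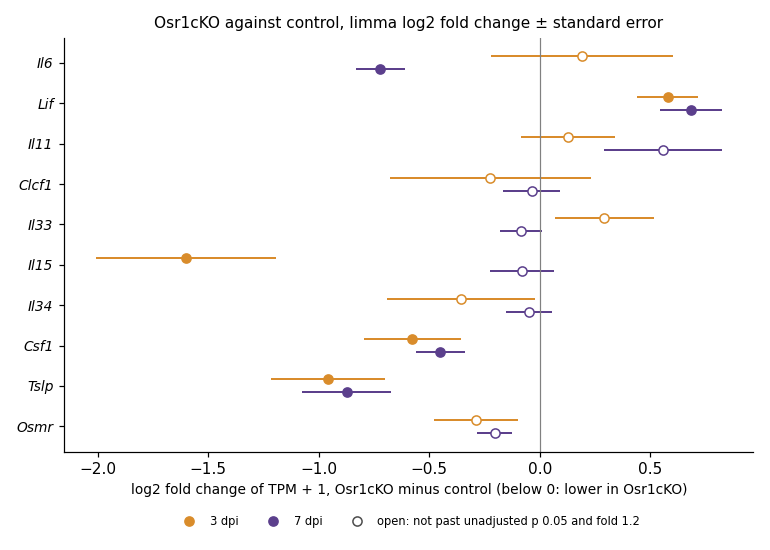
Log2 fold change of TPM + 1 between Osr1cKO and controls with its standard error from limma (horizontal axis) for the 10 genes at 3 dpi and 7 dpi; filled points met the unadjusted rule (p below 0.05 and more than 1.2-fold). Lif is right of 0 and Csf1 and Tslp are left of 0 on both days, while Il6 sits at 0.19 at 3 dpi and at -0.72 at 7 dpi and Il15 at -1.60 and -0.08.

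Il6, on chr5:30013114-30019981 of the plus strand, was at 171 and 96.5 TPM in the controls and at 105 and 211 in Osr1cKO at 3 dpi. The 4 libraries overlapped fully, and the difference of 0.19 ± 0.41 (log2, SE) was well within the spread of replicates (limma, adjusted p = 0.953). Control replicate 1 and Osr1cKO replicate 2 were the high pair, and the same libraries were high for Il11 and Clcf1 but not for Lif or Il33. The summed immediate early and dissociation genes were lower in this pair, at 12561 and 11778 TPM against 14774 and 14403 in the other pair. Members of that list did not all follow the sum, and Nr4a1 was highest in this pair, at 1134 and 1107 against 961 and 1094 TPM. At 7 dpi Il6 was at 296 and 363 TPM in the controls and at 217 and 219 in Osr1cKO. Both Osr1cKO libraries lay below both controls, with a log2 fold change of -0.72 ± 0.11 (limma, unadjusted p = 8.34e-04, adjusted p = 0.217). With limma-voom on the recovered fragments Il6 passed the adjusted threshold (adjusted p = 0.0403), and over 14 alternatives its adjusted p ranged from 0.00632 to 0.721. In the fit of all 8 libraries it did not pass the unadjusted rule either (limma, unadjusted p = 0.0808). The difference between the 2 days' genotype effects was -0.92 ± 0.50 on the log2 scale, which limma did not call (adjusted p = 0.794).

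Beside Il6 at 7 dpi, 6 of 14 listed immediate early and dissociation genes passed the unadjusted rule downward and none upward. Of all tested genes, 6.02% passed downward and 5.10% upward. The 6 were Btg2, Egr1, Ier2, Junb and the heat shock genes Hspa1a and Hspa1b. Junb is also in the list of STAT3 targets described below. The summed TPM of that list was 21583 to 21674 in the controls and 17228 to 21986 in Osr1cKO, where replicate 1 held the lowest value and replicate 2 the highest. The part of this list in the Il6 value was not tested.

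Lif, on chr11:4257557-4272514 of the plus strand, was the one gene of the 10 that was called higher in Osr1cKO at 3 dpi. It was at 156 and 183 TPM in the controls and at 264 and 249 in Osr1cKO. The groups did not overlap, and Lif rose by 0.58 ± 0.14 on the log2 scale, to 1.51 times the control mean (limma, unadjusted p = 0.00868, adjusted p = 0.771). The call was lost without Osr1cKO replicate 1, where the log2 fold change was 0.51 (limma, unadjusted p = 0.0630). At 7 dpi Lif was at 55.7 and 43.0 TPM in the controls and at 90.4 and 84.1 in Osr1cKO. The groups were again apart, at 1.77 times the control mean, with a log2 fold change of 0.68 ± 0.14 (limma, unadjusted p = 0.00353, adjusted p = 0.247). Its adjusted p passed 0.1 with limma-voom (adjusted p = 0.0671) and without control replicate 1 (adjusted p = 0.00750), in a range of up to 0.552 over the 14 alternatives. The genotype differences of the days were 0.10 ± 0.21 apart on the log2 scale (limma, adjusted p = 0.981).

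Read as a ratio within a library, Lif stood at 0.915 and 1.89 times the TPM of Il6 in the controls and at 2.52 and 1.18 times in Osr1cKO at 3 dpi, which overlapped. At 7 dpi it stood at 0.188 and 0.119 times in the controls and at 0.417 and 0.383 times in Osr1cKO. Il6 was the more abundant of the pair in all 4 libraries of 7 dpi, and the distance between them was smaller in both Osr1cKO libraries.

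Il11, on chr7:4772373-4782859 of the minus strand, was at 149.8 and 101 TPM in the controls and at 129 and 143 in Osr1cKO at 3 dpi, where the groups overlapped. At 7 dpi it had dropped to 13.8 and 16.9 TPM in the controls and to 32.8 and 19.2 in Osr1cKO. Both Osr1cKO libraries lay above the controls there, but their own spread was as wide as the difference, and the log2 fold change of 0.55 ± 0.27 did not pass (limma, unadjusted p = 0.0872). Clcf1, on chr19:4214238-4223490 of the plus strand, was at 107 and 42.5 TPM in the controls and at 49.5 and 69.1 in Osr1cKO at 3 dpi, with 1 control library above the other 3. At 7 dpi all 4 libraries lay between 37.4 and 45.9 TPM. Clcf1 shares 8.17% of its exon bases with a same-strand gene, AC109138.7, so its reads may be divided between them.

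Osmr, on chr15:6813577-6874969 of the minus strand, was the steadiest of the 10 genes. It was at 84.2 and 60.5 TPM in the controls and at 57.2 and 60.9 in Osr1cKO at 3 dpi, and at 68.1 and 75.5 against 68.0 and 68.5 at 7 dpi. The groups overlapped on both days, and the log2 fold changes of -0.29 ± 0.19 and -0.21 ± 0.08 did not meet the rules (limma, adjusted p = 0.861 and 0.382). Its ligand gene Osm, a product of leukocytes, was at 0.550 TPM or less in every library.

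The receptors of these ligands were read in the same libraries. Of 10 tested genes of the listed gp130 family and its receptors, none was called at 3 dpi, and at 7 dpi the unadjusted rule took 2 downward and none upward, with a list median of -0.19 (-0.14 at 3 dpi). That rule took 6.02% of all genes downward and 5.10% upward at 7 dpi. Lifr, the LIF receptor chain, was at 25.1 and 30.2 TPM in the controls and at 19.5 and 19.4 in Osr1cKO at 7 dpi, a log2 fold change of -0.61 ± 0.11 (limma, adjusted p = 0.226). Il11ra1, the IL-11 receptor chain, was at 99.4 and 106 against 81.8 and 99.3 TPM (-0.32 ± 0.10, limma, adjusted p = 0.320). At 7 dpi both Osr1cKO libraries thus lay below the controls for the receptor chain of LIF. For Il11ra1, Osr1cKO replicate 2 and control replicate 1 were almost equal, at 99.28 and 99.39 TPM.

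Il6st, the shared gp130 chain, was abundant, at 210.1 TPM or more in every library, and did not pass on either day (log2 fold changes of 0.14 ± 0.19 and 0.004 ± 0.09). Il6ra, the IL-6 binding chain, was at 6.91 to 19.9 TPM and Cntfr at 9.09 to 19.7 TPM, and neither passed between genotypes.

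**Figure D3:**
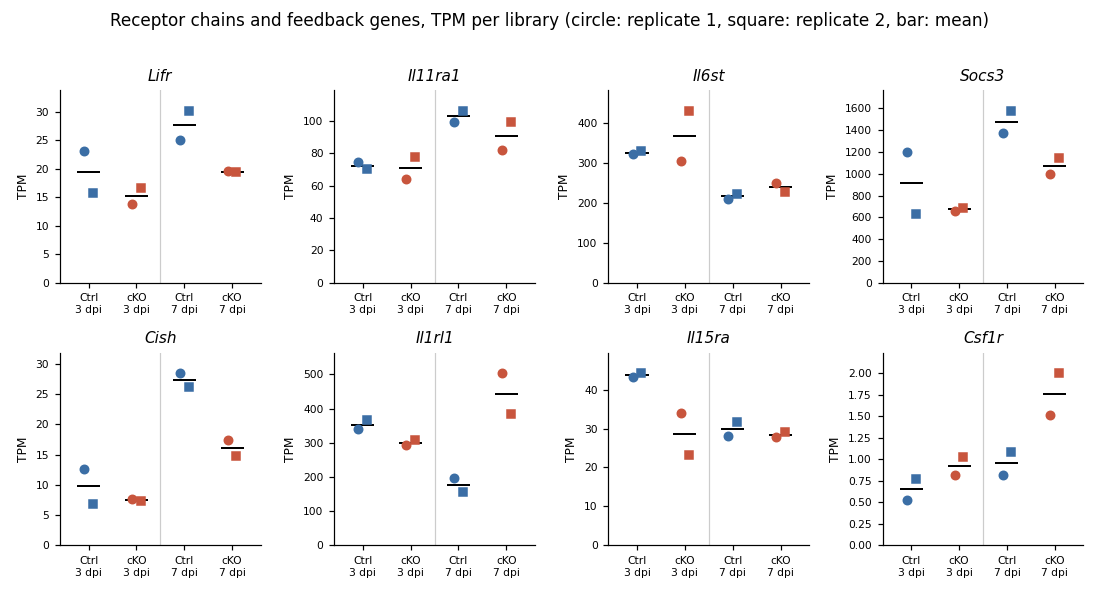
TPM (vertical axes, linear and from 0) of 3 receptor genes of the gp130 ligands (Lifr, Il11ra1 and Il6st), the feedback genes Socs3 and Cish, and receptor genes of IL-33, IL-15 and CSF-1 in the 8 libraries; each point is 1 library and each bar the mean of 2. At 7 dpi Socs3, Cish and Lifr lie below and Il1rl1 and Csf1r above the controls in both Osr1cKO libraries, and Csf1r is at most 2.001 TPM.

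Of 13 genes of JAK-STAT signalling and its feedback, 4 (Socs3, Cish, Socs2 and Jak2) passed the unadjusted rule downward at 7 dpi and none upward, with a median of -0.15, against 1 downward (Socs1) and a median of -0.21 at 3 dpi. Among all genes, 6.02% passed downward and 5.10% upward at 7 dpi, and 4.08% downward at 3 dpi. Socs3, the inhibitor that acts on gp130, was at 1378 and 1579.6 TPM in the controls and at 999 and 1144 in Osr1cKO (-0.60 ± 0.12, limma, adjusted p = 0.243). Cish, a feedback inhibitor that STAT5 induces, was at 28.4 and 26.2 against 17.3 and 14.7 TPM (-0.87 ± 0.13, limma, adjusted p = 0.203). Neither gene's groups overlapped, but both genes were named for a small p in this same comparison. At 3 dpi Socs3 overlapped, at 1198 and 632 against 660.4 and 686 TPM. Socs1 was at 64.5 and 52.2 against 45.4 and 43.1 TPM at 3 dpi and fell by 0.40 ± 0.16 on the log2 scale (limma, unadjusted p = 0.0486), a call that held in 4 of 15 alternatives; it was lost without control replicate 1 (-0.25) and without either Osr1cKO library.

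Of 19 genes described as STAT3 targets, none was called at 3 dpi (list median -0.18), and at 7 dpi 4 passed the unadjusted rule upward and 7 downward (median -0.19), Socs3 being in both lists. The shares of all genes at 7 dpi were 5.10% upward and 6.02% downward. Fgl2, which encodes a secreted fibrinogen-like immunoregulator, was the one gene of the pathway lists that passed the adjusted rule, at 231 and 235 TPM in the controls and 133 and 149 in Osr1cKO. It fell by 0.86 ± 0.07 on the log2 scale (limma, adjusted p = 0.0924). The call held in 7 of 14 alternatives, with adjusted p from 0.00592 to 0.605, and was lost without either Osr1cKO library. Cebpd, a transcription factor of the acute phase response, was at 229 and 249.7 against 167 and 170.1 TPM (-0.64 ± 0.08, limma, adjusted p = 0.146). In the other direction, Saa3, an acute phase protein, was at 37.0 and 30.7 against 112 and 87.9 TPM (1.39 ± 0.16, limma, adjusted p = 0.146), and Fgf7, a growth factor for epithelial cells, at 36.0 and 34.3 against 69.4 and 58.6 TPM (0.71 ± 0.12, limma, adjusted p = 0.217). The members of the list thus lay on both sides of 0. The groups were apart for each of these 4 genes, but the 4 were named for a small p in this same comparison. Among 9 factors that control decay of cytokine mRNAs, none was called at 3 dpi (median -0.18) and 2 passed the unadjusted rule downward at 7 dpi, Arid5a and Zfp36l1 (median -0.07). Zfp36 itself was at 1944 and 2428 against 1319 and 2024 TPM at 7 dpi, where the groups overlapped.

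Il33, on chr19:29925114-29960718 of the plus strand, showed no genotype difference beyond the spread of replicates. It was at 149.5 and 215 TPM in the controls and at 196 and 253 in Osr1cKO at 3 dpi, and at 143 and 165 against 163 and 156 at 7 dpi. The groups overlapped on both days, with log2 fold changes of 0.29 ± 0.22 and -0.09 ± 0.10 (limma, adjusted p = 0.875 and 0.756).

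The IL-33 receptor gene Il1rl1 (ST2) was itself abundant in these libraries. It was at 341 and 365 TPM in the controls and at 295 and 307 in Osr1cKO at 3 dpi (-0.25 ± 0.12, limma, adjusted p = 0.834). At 7 dpi it was at 197 and 156 against 503 and 383 TPM, a log2 fold change of 1.18 ± 0.18 (limma, unadjusted p = 9.42e-04, adjusted p = 0.217). Both Osr1cKO libraries lay below the controls at 3 dpi and above them at 7 dpi. The genotype effects of the days differed by 1.42 ± 0.25 (limma, unadjusted p = 7.09e-04, adjusted p = 0.425). The gene spans a soluble and a membrane form, which gene-level TPM does not separate. Mast cells and lymphocytes, which carry CD45, against which the sort was gated, also express Il1rl1. Of 4 mast cell markers Cpa3 and Tpsb2 were at 0 in every library, with a summed level of 0.104 TPM or less, and the summed lymphoid markers at 7 dpi were at 2.09 to 5.92 TPM in the controls and 0.809 to 1.68 in Osr1cKO. Their part in the Il1rl1 value was not tested. Il1rap, the co-receptor chain, was at 5.14 to 13.3 TPM and did not pass between genotypes.

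Tslp was scarce but separated the genotypes on both days. It was at 9.89 and 12.2 TPM in the controls and at 6.41 and 4.25 in Osr1cKO at 3 dpi, and it fell by 0.96 ± 0.26 on the log2 scale (limma, unadjusted p = 0.0138, adjusted p = 0.771). At 7 dpi it was at 8.29 and 6.81 against 3.28 and 4.93 TPM, a log2 fold change of -0.87 ± 0.20 (limma, unadjusted p = 0.00583, adjusted p = 0.267). The groups did not overlap on either day, and the ratio of means was 0.482 at 3 dpi and 0.543 at 7 dpi. Without Osr1cKO replicate 2 the 3 dpi value was -0.69 and the call was lost (limma, unadjusted p = 0.0827). The receptor chain Crlf2 was at 28.6 to 56.1 TPM and did not pass on either day, and Il7r, the other chain, was at 0.112 TPM or less.

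Il15, on chr8:82331632-82403222 of the minus strand, had the largest log2 genotype difference of the 10 genes at 3 dpi. It was at 16.2 and 11.8 TPM in the controls and at 6.08 and 2.43 in Osr1cKO. The groups did not overlap, the Osr1cKO mean was 0.304 of the control mean, and Il15 fell by 1.60 ± 0.41 on the log2 scale (limma, unadjusted p = 0.0109, adjusted p = 0.771). It kept its call in 15 of 15 alternatives, with log2 fold changes between -2.14 and -1.06. At 7 dpi all 4 libraries lay between 4.64 and 5.33 TPM (-0.08 ± 0.14, limma, adjusted p = 0.852). The genotype effects of the days differed by 1.502 ± 0.470, which passed the unadjusted p only (limma, unadjusted p = 0.0149, adjusted p = 0.650), as did 3.78% of all genes in this direction and 3.09% in the other. No member passed the adjusted test of this difference, which 0 of 17371 genes passed, and Il15 was the one member past the unadjusted p.

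Il15ra, which presents IL-15 on the cell surface, was at 43.4 and 44.3 TPM in the controls and at 34.1 and 23.3 in Osr1cKO at 3 dpi, and fell by 0.63 ± 0.22 (limma, unadjusted p = 0.0333, adjusted p = 0.777). At 7 dpi its groups overlapped, between 27.8 and 31.7 TPM. Ligand and receptor chain were thus both below the controls at 3 dpi, in both Osr1cKO libraries. The signalling chains that lymphocytes use, Il2rb and Il2rg, were at 0.703 to 1.65 and 2.59 to 18.9 TPM. Il2rb was at 1.32 and 1.65 TPM in the controls and at 0.703 and 0.704 in Osr1cKO at 7 dpi (-0.61 ± 0.14, limma, adjusted p = 0.267). Of 8 lymphoid markers Cd8a and Ms4a1 were at 0 in every library, and the summed level at 7 dpi was 2.09 to 5.92 TPM in the controls and 0.809 to 1.68 in Osr1cKO. Cd3e supplied 4.27 TPM of the highest sum, in control replicate 1, and the part of these markers in the Il2rb value was not tested.

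Csf1, on chr3:107741048-107760469 of the minus strand, was lower in Osr1cKO on both days. It was at 1347 and 959.7 TPM in the controls and at 737 and 807 in Osr1cKO at 3 dpi, where it fell by 0.58 ± 0.22 on the log2 scale to 0.669 of the control mean (limma, unadjusted p = 0.0463, adjusted p = 0.788). This call was the least stable of the 4, since it held in 8 of 15 alternatives and the fold change was -0.33 without control replicate 1 (limma, unadjusted p = 0.106). At 7 dpi Csf1 was at 230.3 and 244 against 169 and 214 TPM, 0.809 of the control mean, with a log2 fold change of -0.45 ± 0.11 (limma, unadjusted p = 0.00772, adjusted p = 0.282). The groups did not overlap on either day. The unadjusted rule at 7 dpi held in all 14 alternatives, with values from -0.59 to -0.31.

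Il34, the second ligand of CSF1R, on chr8:110741829-110805924 of the minus strand, was at 17.8 and 21.99 TPM in the controls and at 21.2 and 11.1 in Osr1cKO at 3 dpi. At 7 dpi all 4 libraries lay between 14.2 and 15.8 TPM. Neither day passed (limma, adjusted p = 0.894 and 0.882), and the sign at 7 dpi depended on scaling, at -0.05 after scaling and 0.08 on deposited TPM. Its exons share 22 and 75 bases with the antisense genes Gm15894 and Gm15895, which were at 0.745 TPM or less. Csf1r was near the floor in these sorted cells, at 0.819 and 1.08 TPM in the controls and 1.51 and 2.001 in Osr1cKO at 7 dpi (0.42 ± 0.16, limma, adjusted p = 0.374). Of 10 macrophage markers 2, Csf1r and Cd14, passed the unadjusted rule upward at 7 dpi and none downward, beside 5.10% and 6.02% of all genes. The summed level of the list was 49.6 to 52.2 TPM in the controls and 66.5 to 85.4 in Osr1cKO. Cd14 supplied 12.3 and 9.94 TPM of it in the controls and 26.8 and 25.5 in Osr1cKO. Cd68 was at 12.5 and 13.7 against 15.6 and 17.4 TPM. Lyz2 overlapped, at 23.9 and 21.1 TPM in the controls and 19.5 and 36.1 in Osr1cKO. Adgre1 stayed at 1.80 TPM or less. Macrophages carry CD45, against which the sort was gated, and the part of macrophage RNA in the Csf1r value was not tested.

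Outside the 10 genes, 18 of 21 other stromal cytokines and receptors were tested at 3 dpi, of which 1 was called higher and 4 lower, with a list median of -0.22. Among all genes, 2.20% were called higher and 4.08% lower at 3 dpi. At 7 dpi 5.10% passed the unadjusted rule upward and 6.02% downward. Il18bp, the soluble antagonist of IL-18, was at 66.5 and 34.1 TPM in the controls and at 21.9 and 6.71 in Osr1cKO and fell by 1.89 ± 0.60 (limma, unadjusted p = 0.0261). Il18 was at 37.7 and 34.1 against 21.4 and 19.3 TPM and fell by 0.80 ± 0.15 (limma, unadjusted p = 0.00282). Both the cytokine and its antagonist thus lay below the controls in both Osr1cKO libraries, but both were named for a small p in this comparison. The decoy receptor gene Il1r2 fell by 0.83 ± 0.27 and Flt3l, a growth factor of dendritic cells, by 0.79 ± 0.27 (limma, unadjusted p = 0.0281 and 0.0328). Tnfsf11 (RANKL), which drives osteoclast formation, rose by 1.21 ± 0.31, from 6.18 and 4.39 to 10.2 and 18.0 TPM (limma, unadjusted p = 0.0117). At 7 dpi 2 of 19 genes of this list passed the unadjusted rule upward and 2 downward (median -0.03), and the receptors and growth factors of the IL-33, IL-15, TSLP and CSF1R axis gave 1 downward of 11 at 3 dpi (median -0.25) and 4 upward and 1 downward of 11 at 7 dpi (median 0.19).

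Among 11 lists of cell type markers and of immediate early and dissociation genes, 3 had a called gene at 3 dpi. Ly6a (Sca-1) of the FAP list was lower and Cd14 of the macrophage list higher. The heat shock gene Hspa1b of the immediate early and dissociation list was lower. At 3 dpi 2.20% of all genes were called higher and 4.08% lower. At 7 dpi the unadjusted rule, which took 6.02% of all genes downward and 5.10% upward, also took Pdgfrb of the FAP list downward. It took 3 of 4 myofiber genes downward (summed level 51.6 to 52.8 TPM in the controls against 32.6 to 35.3). It took 2 of 6 endothelial genes upward, Cdh5 (2.32 and 2.13 against 4.16 and 3.74 TPM) and Emcn (0.0686 and 0.2345 against 0.615 and 0.693). The endothelial sum (47.2 to 61.7 against 48.1 to 72.0 TPM) was mostly Tek, at 38.9 and 53.0 against 36.3 and 58.4. The endothelial sum at 3 dpi was 21.4 to 44.4 TPM in the controls against 17.2 to 18.0 in Osr1cKO, with none of 4 tested genes called. Tek supplied 25.4 and Kdr 16.8 TPM of the highest value, in control replicate 1. No tested marker of the neutrophil, lymphoid or Schwann lists passed on either day, and none of the muscle stem cell or erythroid lists passed at 7 dpi. The summed muscle stem cell markers at 7 dpi were highest in control replicate 1, at 23.1 TPM. They were at 2.57 TPM in control replicate 2 and at 5.92 and 5.61 in Osr1cKO. At 3 dpi no muscle stem cell or erythroid marker was abundant enough to test, and only 1 of 6 neutrophil markers was. Of the lymphoid list 1 of 8 markers was tested on each day, and no mast cell marker was tested on either day. The part of these lists in the cytokine values was not tested.

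The second comparison asks how the 10 genes differ between 3 and 7 dpi within a genotype, in 1 fit of all 8 libraries, where a call took an adjusted p below 0.05 and more than 1.2-fold. These contrasts use the same libraries as the comparisons of genotypes. In the controls 1 of the 10 genes was called higher at 7 dpi, where 26.3% of 17371 genes were, and 4 were called lower, where 20.0% were. In Osr1cKO none was called higher, where 23.1% were, and 3 were called lower, where 17.1% were.

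Il6 was the gene called higher in the controls, by 1.56 ± 0.35 on the log2 scale (limma, adjusted p = 0.0108). In Osr1cKO its value was 0.64 ± 0.35 (limma, adjusted p = 0.186), although both 7 dpi libraries, at 217 and 219 TPM, lay above both 3 dpi libraries, at 105 and 211. The call in the controls was lost without control replicate 2 of 7 dpi (limma, adjusted p = 0.0645). Over the 4 groups Il6 was highest in the controls at 7 dpi, followed by Osr1cKO at 7 dpi without overlap, and the 2 groups of 3 dpi overlapped.

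Lif, Il11 and Csf1 fell between the days in both genotypes. Lif fell by 1.56 ± 0.15 in the controls and by 1.46 ± 0.15 in Osr1cKO (limma, adjusted p = 5.28e-04 and 0.00103). Il11 fell by 2.73 ± 0.28 and 2.31 ± 0.28 (limma, adjusted p = 6.12e-04 and 0.00150). Csf1 fell by 2.04 ± 0.17 and 1.93 ± 0.17 (limma, adjusted p = 3.66e-04 and 7.14e-04). These 6 calls held in each of 14 alternatives, with adjusted p of 0.0120 or less from limma. The 4 groups of Lif and of Csf1 stood in order without overlap, Lif from Osr1cKO at 3 dpi, controls at 3 dpi and Osr1cKO at 7 dpi to controls at 7 dpi, and Csf1 from controls to Osr1cKO within each day.

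Il15 fell by 1.13 ± 0.33 in the controls (limma, adjusted p = 0.0290), a call lost without control replicate 1 of 3 dpi (adjusted p = 0.101) or without replicate 1 or 2 of 7 dpi (adjusted p = 0.116 and 0.0890), and was at 0.37 ± 0.33 in Osr1cKO (limma, adjusted p = 0.394). Its control level at 7 dpi was within the range of the Osr1cKO libraries of both days. Clcf1, Il33, Il34, Tslp and Osmr were not called between days in either genotype, with log2 fold changes between -0.58 (Clcf1 in the controls) and 0.29 (Osmr in Osr1cKO).

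**Figure D4:**
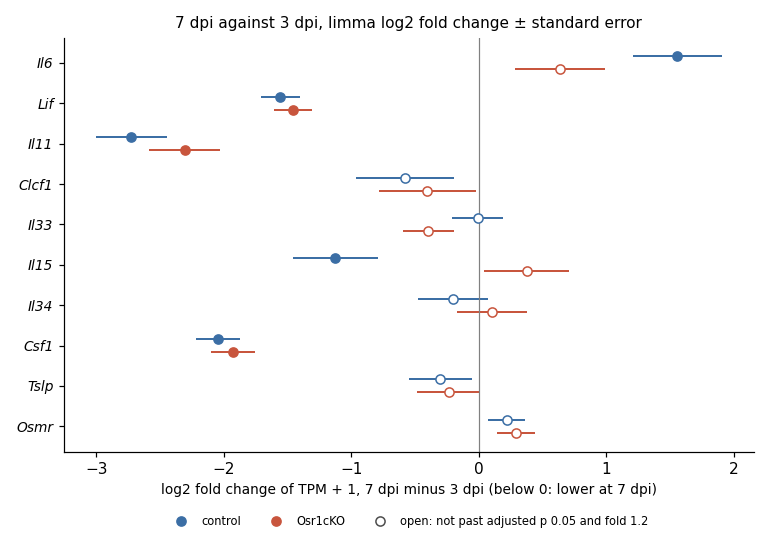
Log2 fold change of TPM + 1 between 7 and 3 dpi with its standard error from limma (horizontal axis) for the 10 genes in controls and Osr1cKO; filled points met the rule between days (adjusted p below 0.05 and more than 1.2-fold). Lif, Il11 and Csf1 lie far left of 0 in both genotypes, between -2.73 and -1.46, and Il6 lies right of 0, at 1.56 in controls and 0.64 in Osr1cKO.

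Receptor genes differed between the days as well. In the controls 5 of 11 tested gp130 family genes were called higher at 7 dpi (26.3% of all genes were), Il11ra1, Lifr, Cntfr, Ctf1 and Osm. None was called lower (20.0% of all genes), with a list median of 0.22 beside 0.11 over all genes. In Osr1cKO 3 were called higher (23.1%) and 2 lower (17.1%), with a median of 0.29 against 0.12. Osm, called higher in both genotypes, met the filter only through 7 dpi (9 to 12 fragments, against 0 to 6 at 3 dpi). Cntf, called lower in Osr1cKO, met it only through 3 dpi (17 to 21 fragments, against 2 to 10). The calls of Osm and Cntf are therefore no test of a difference between days. Il11ra1 rose by 0.71 ± 0.12 in the controls and by 0.43 ± 0.12 in Osr1cKO (limma, adjusted p = 0.00337 and 0.0264), while its ligand gene Il11 fell. Il1rl1 fell by 0.79 ± 0.18 in the controls and rose by 0.63 ± 0.18 in Osr1cKO (limma, adjusted p = 0.0103 and 0.0275). Of the 9 mRNA decay factors 5 rose in each genotype, Zfp36 by 1.25 ± 0.25 in the controls and 0.88 ± 0.25 in Osr1cKO (limma, adjusted p = 0.00644 and 0.0281), and 1, Khsrp, fell. Of the immediate early and dissociation genes, 9 of 14 were called higher in the controls and 7 of 14 in Osr1cKO. The shares over all genes were 26.3% and 23.1%, and none of the list was called lower. Nr4a1 of that list was at 1094 and 1107 TPM at 3 dpi and 713 and 914 at 7 dpi in Osr1cKO (limma, adjusted p = 0.0976). Their part in the Il6 value was not tested.

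Across the 8 libraries, the profile of Il6 was most like those of Tgfbr1 (Pearson r = 0.988 of log2(TPM + 1)), Egfr (0.9753), Maml3 (0.973), Abca1 and Zbtb20 (both 0.973), out of 10385 genes with a mean of at least 5 TPM. The profile of Il33 was most like those of Brd3 (r = 0.951), Cul2 (0.949), Zdhhc9 (0.948), Papss2 (0.939) and Slc46a1 (0.935). Tgfbr1 covered a narrow range, from 34.5 to 46.6 TPM, where Il6 covered 96.5 to 363 TPM. The points share their libraries and depth, and these values are given as a description.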

How the data were processed

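RNA was measured in 8 libraries of sorted FAPs, with 2 for each genotype and day, grouped by the submitters' labels. The authors aligned reads of stranded paired-end libraries with STAR (mm10), normalized fragments with DESeq2 and deposited TPM per gene symbol; the read counter, its annotation and whether it used strand are not given in the sources used here, so antisense and overlapping genes are uncertain. Of 55385 entries, 109 repeats of 106 symbols were left out. With GENCODE release 21 exon lengths (53275 symbols matched to 1 gene, 2001 not), the low values (under 50 fragments) were whole to within 0.02 in 98.65% to 98.91% of cases, which let depth be recovered. Counting error then weighs most on the scarce genes Tslp and Il15.

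Libraries were put on one scale with trimmed mean log ratios (30% off each tail), and values were tested as log2(TPM + 1), which understates changes of low genes, with limma 3.58.1 (lmFit, eBayes with trend, two-sided) in R 4.3.3 and Benjamini-Hochberg adjustment over all genes tested. Genes needed at least 10 fragments in 2 libraries and 15 over a fit, or, without a length, a mean TPM of at least 1. Days were fitted separately for genotypes; 1 fit of all 8 libraries gave contrasts between days and the interaction. Thresholds between genotypes followed the study's methods; the adjusted p under 0.05 between days and for the interaction was set here. The replicates are separate mice at 3 dpi and pools of 4 mice at 7 dpi, so p-values within a day measure the spread between mice or between pools, with 2 per group. The fit of all 8 libraries gives each gene 1 spread for both days. Its p-values therefore mix the spread of mice with that of pools, which may be unlike. Scripts were tested on simulated data. Figures and sequences used Python 3.11.15.

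Named were the 10 genes, Osr1, the receptor chains and Osm, and at most 6 further genes of 6 pathway lists with the smallest unadjusted p per genotype comparison; other names stand for counts of 5 or fewer or were chosen after their values were seen, as were the AU-rich stretches. A gene of the gp130 list is not reported here and was left out of that list's counts. Members, lists and thresholds were chosen with earlier results of these data known. Alternatives were other scaling, pseudocounts (0.1 and 0.5), filters, limma-voom, robust eBayes, the replicate block, other library sets and leaving out each library. Replicate numbers mark different mice, and deviations of same-numbered libraries correlated at -0.117 at 3 dpi and 0.0647 at 7 dpi, so the numbers were not taken as pairs.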

Additional observations from a re-analysis of the deposited data

Results flagged for a closer look

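Among genes listed with the cytokines or as cell type markers, 8 of those tested on both days switched sides. In these, both Osr1cKO libraries lay below both controls at 3 dpi and above both at 7 dpi. The share of all tested genes with such a switch was not computed, so the count is not read as a result about these lists. Il1rl1 was at 341 and 365 TPM in the controls against 295 and 307 in Osr1cKO at 3 dpi, and at 197 and 156 against 503 and 383 at 7 dpi; its genotype effects differed between the days by 1.42 on the log2 scale (limma, adjusted p = 0.425). Il18bp was at 66.5 and 34.1 against 21.9 and 6.71 TPM at 3 dpi, and at 5.46 and 5.57 against 6.32 and 7.15 at 7 dpi, a difference between effects of 2.003 (limma, adjusted p = 0.687). Il7, a lymphocyte growth factor, was at 1.09 and 1.28 against 0.670 and 0.890 TPM, and then at 0.278 and 0.352 against 0.789 and 0.809, a difference of 0.71 (limma, adjusted p = 0.571). Il17rc, an IL-17 receptor chain, was at 82.8 and 77.7 against 71.2 and 65.8 TPM, and then at 31.9 and 28.9 against 35.5 and 37.6, a difference of 0.36 (limma, adjusted p = 0.706). The same switch gave differences of 0.56 for Kitl, 0.80 for the macrophage marker Cd68, 0.59 for the endothelial marker Pecam1 and 2.16 for the endothelial marker Kdr (limma, adjusted p = 0.857, 0.726, 0.730 and 0.730). For Kdr, control replicate 1 at 3 dpi was at 16.8 TPM and every other library at 2.25 or less. None of the 8 differences passed the adjusted test, and none of the 10 cytokine and receptor genes showed such a switch.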

How the results depend on the processing

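With 2 libraries per group, single libraries decided several counts. At 3 dpi (1 gene called higher, 3 lower), leaving out 1 library gave 0 to 2 higher and 1 to 5 lower: 0 higher without Osr1cKO replicate 1, 2 higher without control replicate 1 or 2, 5 lower without control replicate 2 and 1 lower without Osr1cKO replicate 2. An adjusted p under 0.1 left 0 higher and 0 lower. At 7 dpi (0 and 0), limma-voom called 1 higher (Lif) and 1 lower (Il6), leaving out 1 library gave 0 to 1 in each direction (1 higher and 1 lower without control replicate 1, 1 lower without control replicate 2), and the unadjusted rule gave 1 and 3. Over all genes, limma-voom called 82 higher and 133 lower at 7 dpi in place of 3 and 8. With no further scaling, a minimum mean of 1 TPM, no filter or all 8 libraries in 1 fit, 0 higher and 0 lower were called, and leaving out 1 library gave 1 to 284 higher and 10 to 290 lower. At 3 dpi, leaving out 1 library gave 171 to 1010 higher and 290 to 1760 lower of all genes, in place of 346 and 640, the fit of all 8 libraries 696 and 1008, and no filter 537 higher. For the interaction (0 called), the unadjusted p gave 1 higher (Il15). Between days in the controls, leaving out 1 library gave 0 to 2 higher (0 without replicate 2 of 7 dpi, 2 without replicate 1 of 3 dpi); in Osr1cKO it gave 0 to 1 higher (1 without either library of 3 dpi), and a fit of only the 4 Osr1cKO libraries gave 1, Osmr. The cause of these shifts was not tested.

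Among the 10 genes, signs turned only for values that had not passed their rule. On deposited TPM without scaling, which moves the median of all genes by 0.12 (log2) at 7 dpi, 4 genes turned positive there, Clcf1 (0.10), Il33 (0.0508), Il15 (0.0319) and Il34 (0.0801). Il33 in the controls between days turned to 0.0102 with limma-voom, and Il34 in Osr1cKO to -0.0508 with median of ratios scaling. Leaving out 1 library gave ranges across 0 for Il6 (-0.29 to 0.67), Il11 (-0.16 to 0.41), Clcf1 (-0.89 to 0.43) and Il34 (-0.82 to 0.10) at 3 dpi; for Clcf1 (-0.21 to 0.135), Il33 (-0.19 to 0.015) and Il34 (-0.10 to 0.0069) at 7 dpi; for Clcf1 (-1.23 to 0.052), Il33 (-0.30 to 0.25) and Osmr (-0.0137 to 0.43) between days in the controls; and for Il15 (-0.16 to 0.89), Il34 (-0.35 to 0.54) and Tslp (-0.50 to 0.013) between days in Osr1cKO.

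With the replicate block, 1 gene was called higher and 2 lower at 3 dpi (Csf1 was lost), 0 and 0 at 7 dpi, where 6 genes of the whole table were called higher and 1 lower, and the counts between days were 1 and 4 in the controls and 0 and 3 in Osr1cKO. A crossed pairing at 3 dpi, chosen after seeing the data, gave 1 higher and 3 lower of the 10 genes and 469 and 788 of all genes. The other alternatives kept the counts of the 10 genes within 1.5 times.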
